A study of Mus musculus with 13 samples.

Results

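The Ras genes Hras and Nras and 7 genes that the ERK pathway induces as its own brakes (Dusp4, Dusp5, Dusp6, Spry1, Spry2, Spry4 and Spred1) were followed in mammary tumors and mammary glands of mice. They were taken by symbol from the deposited gene table, and all 9 were found among its 15213 genes. Total RNA was sequenced from 10 flash-frozen mammary tumors of 6 females with the label genotype MtTA Teto-TSG101wt, which carry the MMTV-tTA and TetO-Tsg101 transgenes, with the mammary glands of 3 FVB females, labelled WT, as the comparison. The transactivator tTA is made from the mouse mammary tumor virus (MMTV) promoter and drives, in the absence of doxycycline, a transgene of HA-tagged mouse TSG101 with a luciferase reporter. The study carried all transgenes in the FVB/N background and chose 1 founder line for its molecular work, so the tumors speak for that line and for the cells in which MMTV is active. The glands carried neither transgene. The age of the animals and the reproductive stage of the gland donors are not given in the sources used here. Single tumors came from 3 of the 6 females, pairs from 2 and a set of 3 tumors from 1. Tumors of the same mouse are not independent samples, and nothing in the labels assigns the libraries to one or the other of the 2 sequencing sites they name.

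Ras proteins are membrane-bound GTPases that pass growth factor signals on to the kinases RAF, MEK and ERK. Active ERK then induces genes whose products shut the pathway down at different levels. The dual-specificity phosphatases encoded by Dusp4, Dusp5 and Dusp6 remove the activating phosphates of MAP kinases, DUSP4 and DUSP5 in the nucleus and DUSP6 in the cytoplasm. Sprouty and Spred proteins act further up, between the receptor and RAF, and SPRED1 brings the Ras GTPase-activating protein neurofibromin to the membrane. In the mammary gland the pathway is best known for its part in ductal branching downstream of EGF and FGF receptors.

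Between 6176269 and 16835397 reads per tumor and between 11672487 and 23889042 per gland lay behind the values. Levels are given as normalized cpm, the deposited unit, which is a read count divided by the effective size of the library. The targeted gene Tsg101 ranged from 49.9 to 101 normalized cpm over the tumors and from 45.6 to 61.0 over the glands, with 6 of 10 tumors above every gland, and its log2 fold change of 0.30 did not pass the test (limma, adjusted p = 0.296). These values do not separate the transgene from the endogenous gene. The marker lists differed between the groups, as their summed levels and the calls in the fit without a filter on low values show, where 10.5% of all 15213 genes were higher and 10.1% lower. All 8 adipocyte genes were lower in the tumors, which summed to 75.3 to 366 normalized cpm against 3728 to 10717 in the glands. All 6 milk genes were lower as well (1309 to 49195 against 117394 to 175636), as were 7 of 8 endothelial genes (58.2 to 128 against 273 to 631) and 4 of 6 fibroblast genes (381 to 1122 against 3879 to 4419). Higher in the tumors were 7 of 8 squamous genes (266 to 2302 against 6.55 to 20.2) and 5 of 6 basal epithelial genes (1076 to 4563 against 367 to 789), while the sixth, Itga6, was lower. The 14 epithelial genes summed to 2336 to 3670 in the tumors and 1443 to 3434 in the glands, with 3 called higher. The 9 lymphocyte genes, 7 of them lower, summed to 13.9 to 111 in the tumors and 29.7 to 558 in the glands. Of the 5 macrophage genes 1 was higher (94.1 to 236 against 116 to 139). None of the 4 muscle genes was called, and their sum was at most 8.07 in 8 tumors and 9.996 in the glands but 1750 in tumor 4 and 218 in tumor 10. No marker gene of any list was at 0 in all tumors. The libraries are whole tissue, so fewer cells of a type and less RNA per cell cannot be told apart, and the part of these cell types in the results was not tested.

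Gland 3 and tumors 4, 7, 9 and 10 stood apart, tumors 4 and 10 by their muscle genes and tumor 7 by the highest squamous (2302 normalized cpm) and basal epithelial (4563) sums, where the tumor medians were 478 and 1447. For 7 of the 9 genes the value of gland 3 lay within the range of the tumors, against 3 for gland 1 and 2 for gland 2. Gland 3 also had the highest adipocyte sum (10717 normalized cpm), the lowest epithelial sum (1443) and the lowest endothelial sum (273) of the glands. It was the shallowest gland, with 11672487 reads against 23889042 and 21407069, and 4.35% of its reads fell on the ribosomal RNA precursor Rn45s, against 0.324% and 0.296% in glands 1 and 2. In tumor 9, 27.4% of the reads fell on Rn45s, against 0.456% to 9.32% in the other tumors, and the tumor was the highest of the 10 for Hras, Dusp6 and Spred1 and the lowest for Nras, Dusp4 and Spry1. Dusp4, Dusp6, Spry4 and Spred1 kept their calls without tumor 4, without tumor 7 and without tumor 10. Spry1 passed 2-fold without tumor 7 (-1.02, limma, adjusted p = 0.0263). The part of the muscle, squamous and basal genes and of Rn45s in the results was not tested. Results are given with and without these libraries where that changes them.

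The comparison asked how tumors labelled as overexpressing TSG101 differ from normal mammary gland. The 9 genes did not move together. Dusp6 and Spred1 were higher and Dusp4 and Spry4 lower in the tumors by the study's rule, a change of more than 2-fold with a false discovery rate (FDR) below 0.05. Hras, with a 1.99-fold higher level, and Spry1, with a 1.93-fold lower level, passed the FDR but fell just short of 2-fold. Nras, Dusp5 and Spry2 did not pass the test. Spry4 was under the filter on low values (no more than 5 normalized cpm in most libraries) and was taken from the same test without it.

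Of the 8 genes past the filter, 2 were higher and 1 was lower, beside 10.2% of all 11795 genes tested that were higher and 6.99% that were lower. At the FDR alone 5 of the 8 passed, 3 of them higher and 2 lower, beside 27.8% of all genes tested in either direction. Without the filter, 10.1% of 15213 genes were lower by the full rule, and so were Dusp4 and Spry4. On the log2 scale the median difference of the 8 genes was 0.05, beside 0.01 over the whole set of genes tested. These counts rest on few genes and were not tested against the background, so the results are given gene by gene.

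**Figure D1:**
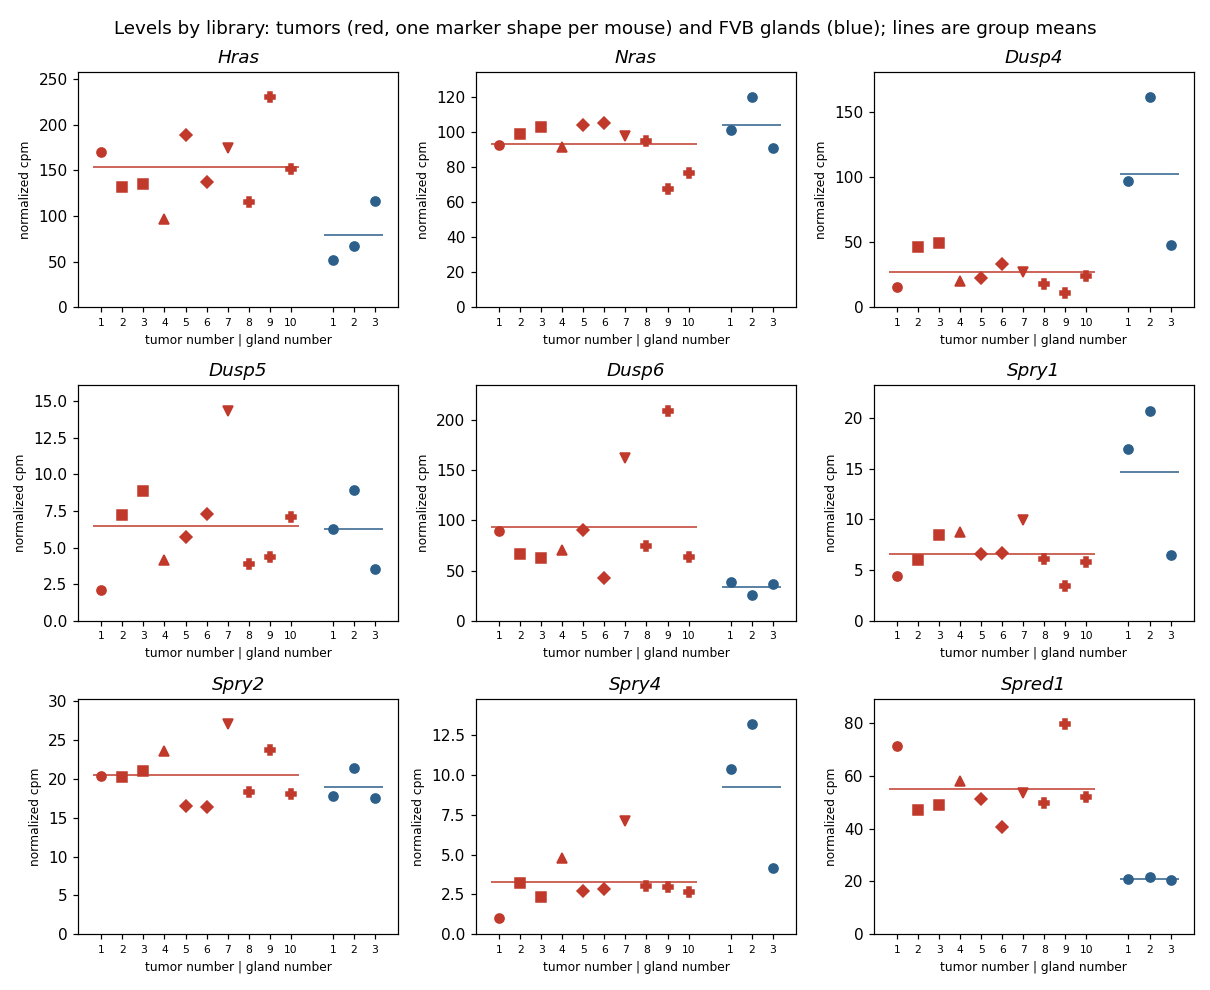
Normalized cpm (vertical axes, from 0) of each gene in the 10 tumors (red, 1 marker shape per mouse) and the 3 FVB glands (blue), with the group means as lines. All 10 tumors are above all 3 glands for Dusp6 and Spred1, while gland 3 lies among the tumors for Hras, Dusp4, Spry1 and Spry4.

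Hras (Entrez 15461; GRCm38.p6 chromosome 7, 141189934 to 141194019), the Ras gene that gave the family its name as a viral oncogene, was at 97.0, 145 and 230 normalized cpm in the lowest, the median and the highest tumor. Glands 1, 2 and 3 were at 52.0, 67.5 and 117, so that 8 of 10 tumors were above every gland and tumors 4 and 8 were below gland 3. Tumors exceeded glands by a log2 fold change of 0.99 (standard error 0.26, limma, adjusted p = 0.0103), and an exact permutation test over the 13 libraries gave p = 0.0105 (two-sided, 153 ± 38.8 normalized cpm, SD, n = 10, against 78.7 ± 33.8, SD, n = 3). With 1 mean per mouse the exact test gave p = 0.0238 for 6 against 3 mice, where 0.0119 is the smallest p possible. The side of the 2-fold limit on which Hras falls depended on single libraries. Without tumor 2, 3, 4, 6 or 8 the log2 fold change was between 1.01 and 1.06, past the limit. Without gland 3 the log2 fold change was 1.32 (limma, adjusted p = 0.00203), and without gland 1 or gland 2 the gene did not pass the FDR (limma, adjusted p = 0.10 and 0.0534). Without tumor 9 it was 0.92 (limma, adjusted p = 0.0111).

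Nras (Entrez 18176; chromosome 3, 103058285 to 103067914), its close relative, was at 67.6, 96.2 and 105 normalized cpm in the lowest, the median and the highest tumor and at 101, 120 and 90.7 in glands 1, 2 and 3. The groups overlapped, with the log2 fold change at -0.16 and a 95% interval from -0.50 to 0.18 (limma, adjusted p = 0.497). Of the 9 genes Nras varied least over the tumors, with the highest tumor 1.55 times the lowest. Per kilobase of exon, Hras exceeded Nras between 1.52-fold and 4.87-fold in every tumor, whereas glands 1 and 2 had ratios of 0.735 and 0.805 and gland 3 had 1.84. This ratio is formed within a library and does not depend on how libraries are scaled. It was chosen after the values were seen and was not tested.

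The 3 phosphatase genes took 3 different courses. Dusp6 (Entrez 67603; chromosome 10, 99263231 to 99267489), whose product acts on ERK in the cytoplasm, was higher in the tumors. Its lowest, median and highest tumor were at 42.7, 72.4 and 210 normalized cpm and the glands at 38.2, 25.5 and 37.1. All 10 tumors were above all 3 glands, as were 10.7% of the genes tested. This amounted to a log2 fold change of 1.31 (standard error 0.37, limma, adjusted p = 0.0166), with an exact permutation p = 0.0105 over the libraries and p = 0.0119 over 6 against 3 mice (two-sided), the latter the smallest possible. Tumors 9 and 7, at 210 and 163, were well above the others, and without tumor 9 the log2 fold change was 1.16 (limma, adjusted p = 0.00972). Without gland 2 the gene did not pass the FDR (limma, log2 fold change 1.13, adjusted p = 0.0934).

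Dusp4 (Entrez 319520; chromosome 8, 34807610 to 34819894), which encodes a nuclear MAP kinase phosphatase, fell the most of the 9 genes. The glands were at 97.0, 161 and 48.0 normalized cpm and the lowest, the median and the highest tumor at 10.7, 22.9 and 49.2. Except for tumor 3, which was just above gland 3, the tumors were below every gland (9 of 10). As a background, 8.53% of the genes tested had all 10 tumors below all glands, which none of the 9 genes reached. Fitted over all libraries, the log2 fold change was -1.87 (standard error 0.42, limma, adjusted p = 0.00357), and the exact permutation tests gave p = 0.00699 over the libraries and p = 0.0119 over the mice (two-sided). The call held in each of the 13 fits that left out 1 library, with log2 fold changes between -2.32 and -1.46.

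Dusp5 (Entrez 240672; chromosome 19, 53529145 to 53541809), the other nuclear phosphatase gene of the group, was low in both groups. Its lowest, median and highest tumor were at 2.10, 6.41 and 14.4 normalized cpm and the glands at 6.25, 8.93 and 3.54, which lie within the range of the tumors. The log2 fold change was -0.01 and the 95% interval from -0.83 to 0.82 (limma, adjusted p = 0.993). The interval leaves out a 2-fold change either way on this scale, but not smaller changes. It rests on 3 glands and on 19 to 137 reads per tumor. Reads of an antisense gene that overlaps Dusp5 by 547 bases could not be set apart, because no source used here says whether the counting used strand. The same holds for genes on the opposite strand that overlap Spry1 by 710 bases and Spry4 by 71 and 119 bases.

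Set against each other within a library, Dusp6 and Dusp4 changed places. Per kilobase of exon, the level of Dusp6 was 1.11, 3.32 and 17.1 times that of Dusp4 in the lowest, the median and the highest tumor. In glands 1, 2 and 3 the ratio was 0.344, 0.138 and 0.675. Every tumor was therefore on the side of the cytoplasmic phosphatase gene and every gland on that of the nuclear one, whichever way the libraries are scaled. This ratio, too, was chosen after the values were seen, and no test is given.

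The promoters of Dusp5 and Dusp6 are shown because the phosphatase genes parted ways, with the promoter of Spred1, the feedback gene with the smallest p. They come from RefSeq (GRCm38.p6), which gave a promoter for 7 of the 9 genes, and run 5′ to 3′ from 250 bases before the annotated start to 50 bases after it. Capitals mark CArG boxes, the binding motif of serum response factor, which works with ERK-activated ternary complex factors at immediate early genes.
Dusp5 (chr19:53528895-53529194, plus strand): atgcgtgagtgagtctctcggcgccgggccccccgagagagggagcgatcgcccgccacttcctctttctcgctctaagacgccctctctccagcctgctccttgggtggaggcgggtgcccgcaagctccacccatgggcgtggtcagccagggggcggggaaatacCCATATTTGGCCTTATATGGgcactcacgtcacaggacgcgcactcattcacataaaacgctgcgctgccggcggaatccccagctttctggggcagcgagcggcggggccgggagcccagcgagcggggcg
Dusp6 (chr10:99262981-99263280, plus strand): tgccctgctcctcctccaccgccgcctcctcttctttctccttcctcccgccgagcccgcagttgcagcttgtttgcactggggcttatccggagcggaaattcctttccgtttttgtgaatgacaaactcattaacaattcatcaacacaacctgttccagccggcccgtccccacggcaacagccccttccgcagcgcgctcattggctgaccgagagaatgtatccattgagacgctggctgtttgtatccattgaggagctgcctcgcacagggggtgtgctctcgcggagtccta
Spred1 (chr2:117120821-117121120, plus strand): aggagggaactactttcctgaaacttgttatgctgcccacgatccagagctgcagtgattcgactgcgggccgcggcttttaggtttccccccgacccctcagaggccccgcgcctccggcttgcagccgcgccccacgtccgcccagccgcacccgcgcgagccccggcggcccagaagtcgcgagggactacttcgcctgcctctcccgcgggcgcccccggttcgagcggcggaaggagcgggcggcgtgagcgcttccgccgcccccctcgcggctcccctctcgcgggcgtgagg
Dusp5 held 2 CArG boxes end to end, the first starting 82 bases before the start, where 535 of all 32851 promoters of the same length (1.63%) held at least 1 and 6 (0.0183%) held 2 or more. Both strands were searched, and the pair does not overlap. No CArG box was found in the other 6 promoters. None of the 7 held the ETS motif CCGGAAG, the CRE motif TGACGTCA or the AP-1 motif TGANTCA, which 8.86%, 1.79% and 7.81% of all promoters held. The GC box GGGCGG, in 35.7% of all promoters, occurred at 3 positions each in Hras, Nras and Spred1 and at 1 position each in Dusp5 and Spry1. In the same window, 1 of 11 other ERK-induced genes with a promoter held a CArG box (Egr2), and Fos held none. A match to these letters, or its absence, is a description of the window only.

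Of the Sprouty and Spred genes, Spred1 rose, Spry4 fell, and Spry1 and Spry2 were not called. Spred1 (Entrez 114715; chromosome 2, 117121071 to 117182279) had the clearest difference of all 9 genes. The 3 glands were at 20.8, 21.6 and 20.6 normalized cpm and the lowest, the median and the highest tumor at 40.5, 51.6 and 79.7. Even the lowest tumor was well above the glands, and all 10 of 10 were higher. In limma's fit the tumors were higher by 1.33 on the log2 scale (standard error 0.18, limma, adjusted p = 6.91e-05), and the exact permutation tests gave p = 0.0035 over the libraries and p = 0.0119 over the mice (two-sided), each the smallest possible. In the 13 fits that left out 1 library the log2 fold change stayed between 1.27 and 1.37.

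Spry1 (Entrez 24063; chromosome 3, 37639947 to 37644599), an inhibitor of receptor tyrosine kinase signaling, was at 16.9, 20.8 and 6.46 normalized cpm in the glands and at 3.41, 6.36 and 9.96 in the lowest, the median and the highest tumor. Glands 1 and 2 were above all tumors and gland 3 lay among them. The log2 fold change of -0.95 (standard error 0.31, limma, adjusted p = 0.0348) did not reach 2-fold. It was -1.42 without gland 3 (limma, adjusted p = 0.00246) and did not pass the FDR without gland 1 or gland 2 (limma, adjusted p = 0.182 and 0.236). It also missed the FDR narrowly without tumor 1, 2, 8 or 10 (limma, adjusted p between 0.0502 and 0.0511), and more widely with reads summed per mouse (0.102) and without the mouse of 3 tumors (0.0967). On the recovered read counts the gene was called lower by edgeR's quasi-likelihood test (log2 fold change -1.15, adjusted p = 0.0118) and by DESeq2 (-1.14, adjusted p = 0.00335). The exact permutation tests gave p = 0.0210 over the libraries and p = 0.0833 over the mice (two-sided).

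Spry4 (Entrez 24066; chromosome 18, 38586247 to 38601347), of the same family, was the least abundant member. The glands were at 10.4, 13.2 and 4.14 normalized cpm and the lowest, the median and the highest tumor at 1.02, 2.90 and 7.13, from 13 to 102 reads per tumor. As with Spry1, gland 3 was among the tumors, and 8 of 10 tumors were below every gland. The log2 fold change in the fit without the filter was -1.22 (standard error 0.35, limma, adjusted p = 0.0159), and the exact permutation tests gave p = 0.0105 over the libraries and p = 0.0714 over the mice (two-sided). The call was lost without gland 1 or gland 2 (limma, adjusted p = 0.0892 and 0.115) and with reads summed per mouse or without the mouse of 3 tumors (limma, adjusted p = 0.0730 and 0.0523).

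Spry2 (Entrez 24064; chromosome 14, 105891947 to 105896819), the family member best known as a brake on FGF signaling, differed by less than the spread between libraries. The lowest, the median and the highest tumor were at 16.3, 20.3 and 27.1 normalized cpm and the glands at 17.9, 21.4 and 17.6, inside the range of the tumors. The log2 fold change was 0.10, or -0.49 when libraries were scaled to epithelial genes, which is 0.09 above the median of all genes in that scaling. The 95% interval of the former ran from -0.25 to 0.45 (limma, adjusted p = 0.697), which leaves out a 2-fold change either way.

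**Figure D2:**
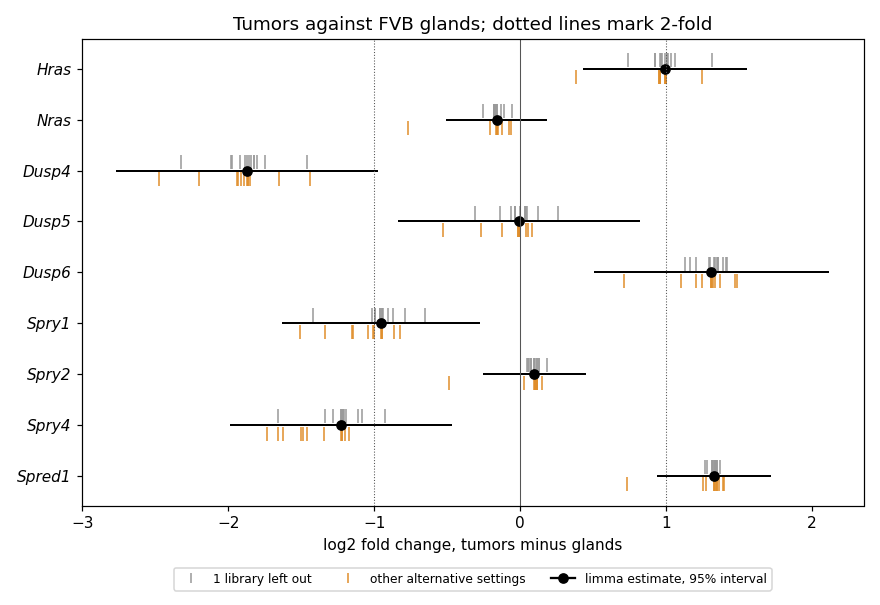
Log2 fold change of tumors minus glands for the 9 genes (limma, dots with 95% intervals), with the values when 1 library was left out (grey ticks) and under the other alternative settings (orange ticks). Dotted lines mark 2-fold. The estimates of Spred1 and Dusp6 lie to the right of 2-fold and those of Dusp4 and Spry4 to the left, the scaling to epithelial genes gives the leftmost orange tick of each gene, and Spry2 and Dusp5 have ticks on both sides of 0.

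The directions above hold relative to the authors' scaling. When each library was scaled to the mean log2 level of the 14 epithelial markers instead, the median over the genes tested moved from 0.01 to -0.58 and the calls to 615 higher and 2527 lower, from 1204 and 825. Dusp6 and Spred1 kept their sign at 0.71 and 0.73 but not their call (limma, adjusted p = 0.277 and 0.0722). Relative to the shifted median they were at 1.29 and 1.31. Dusp4, Spry4 and Spry1 were at -2.47, -1.74 and -1.51 and all called lower, which is -1.90, -1.16 and -0.93 relative to that median. Nras at -0.77 passed the FDR (limma, adjusted p = 0.00395) but was at -0.19 relative to it. Hras, at 0.39 and 0.96 above the shifted median, no longer passed (limma, adjusted p = 0.478).

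Levels between genes can be set side by side only per length, here as normalized cpm per kilobase of the union of exons. In the tumors the order of the means was Hras (41.0), Dusp6 (29.8), Nras (17.4), Spry2 (9.83), Dusp4 (9.73), Spred1 (8.14), Dusp5 (2.63), Spry1 (2.28) and Spry4 (0.689). Neighbours in this order overlapped over the 10 tumors, except that the lowest tumor for Spred1 (5.97) was above the highest for Dusp5 (5.81). The lowest tumor for Dusp4 (3.90) lay within the range of Dusp5. In the glands the order began with Dusp4 (37.3), followed by Hras (21.1), Nras (19.5), Dusp6 (10.7), Spry2 (9.08), Spry1 (5.06), Spred1 (3.10), Dusp5 (2.52) and Spry4 (1.95). Only 3 glands stand behind each of these means, and the ranges of neighbours overlapped from Dusp4 to Nras, from Dusp6 to Spry2 and from Spry1 to Spry4. Dusp4 thus went from the first place to the fifth, and Dusp6 from the fourth to the second. With the length of the longest transcript in place of the union, both orders were the same.

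**Figure D3:**
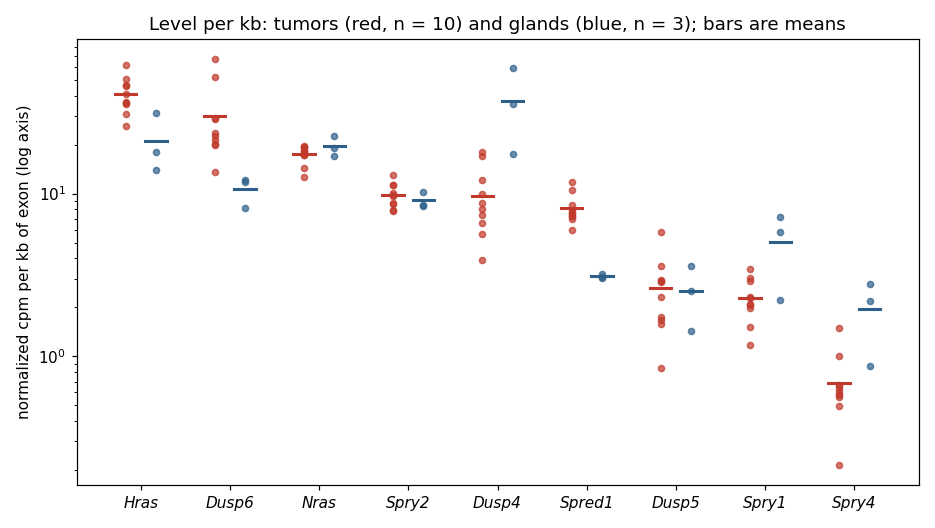
Normalized cpm per kilobase of exon (log axis) of the 9 genes in the 10 tumors (red) and the 3 glands (blue), in the order of the tumor means, with bars for the means. Dusp4 has the highest mean in the glands (37.3) and the fifth in the tumors (9.73), and Spry4 has the lowest in both.

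The 9 genes differed in how widely they varied among the tumors. The highest tumor exceeded the lowest 6.99-fold for Spry4, 6.84-fold for Dusp5, 4.91-fold for Dusp6 and 4.60-fold for Dusp4, but 1.97-fold for Spred1, 1.66-fold for Spry2 and 1.55-fold for Nras. The order of the first 4 rested on single tumors: without tumor 1 the ratios of Spry4 and Dusp5 were 3.02 and 3.70, and without tumor 7 they were 4.69 and 4.23. Tumor 7 was the highest of the 10 for Dusp5, Spry1, Spry2 and Spry4, and tumor 6 the lowest for Dusp6, Spry2 and Spred1. The 2 tumors of mouse 51067 were alike, with ratios between 1.02 (Hras) and 1.4 (Spry1). In the pair of mouse 51356 Dusp6 differed 2.13-fold and Dusp4 1.52-fold. The 3 tumors of mouse 51386 ranged from 63.3 to 210 normalized cpm for Dusp6, from 10.7 to 23.9 for Dusp4 and from 115 to 230 for Hras, and tumor 9 was at one end of each range. The other two tumors of this mouse differed 1.17-fold, 1.32-fold and 1.32-fold for these genes. Across all genes tested, the consensus correlation of tumors of 1 mouse was 0.0477.

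The genes whose log2 levels followed a member most closely over the 10 tumors were, as a ranking with no test, Sys1 and Ube3c for Hras (Pearson r 0.97 and 0.96), Aen and Lpcat4 for Nras (0.93 and 0.93), Mtmr14 and Eif4ebp2 for Dusp4 (0.97 and 0.95), and Rnf225 and Dedd2 for Dusp5 (0.96 and 0.96). For Dusp6 they were Dse and Ppfibp1 (0.97 and 0.96), for Spry1 9530082P21Rik and Limk2 (0.96 and 0.96), for Spry2 Ptgs1 and Vasn (0.98 and 0.92), for Spry4 Loxl2 and Sema3b (0.91 and 0.91) and for Spred1 Eps8 and Sgcb (0.98 and 0.94). They are the highest of 11795 genes, the 10 tumors come from 6 mice, and 1 tumor, such as tumor 9 for Hras, Dusp6 and Spred1, can weigh heavily. No member was among the genes closest to another.

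Around the 9 genes, none of the Ras-family GTPases, kinases or maturation genes listed was called, in lists so short that the share over all genes tested (10.2% higher and 6.99% lower) amounts to few calls. Of 10 other Ras-family GTPases none was called by the full rule, and Ralb (-0.56, limma, adjusted p = 0.0437) passed the FDR alone. Of 14 RAF, MEK and ERK kinases and scaffolds past the filter none was called either. Map2k1, which encodes MEK1 and is named after its value was seen, had a log2 fold change of 0.59 (limma, adjusted p = 0.00573), short of 2-fold with all 10 tumors above all glands. None of 10 genes of Ras protein maturation was called, and Pde6d (0.63, limma, adjusted p = 0.0354) passed the FDR alone. The medians of these lists were -0.16, -0.05 and -0.01, beside 0.01 for all genes tested.

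The genes called by the full rule among those that switch Ras on and off were all lower, while 2 GTPase-activating protein genes were higher at the FDR alone. Of 9 Ras GTPase-activating protein genes past the filter, Rasa3 (log2 fold change -1.29, limma, adjusted p = 0.000366) and Rasal3 (-1.91, limma, adjusted p = 0.0197) were lower by the full rule, beside 6.99% of all genes tested. At the FDR alone 4 of the 9 passed, beside 27.8% of all genes, and the other two were higher. They were Rasa4 (0.95, limma, adjusted p = 0.0090), with 9 of 10 tumors above all glands, and Rasa1 (0.84, limma, adjusted p = 0.0182), with 10 of 10 above. Rasa3 was lower in 10 of 10 tumors, at 23.4 to 36.9 normalized cpm against 45.3 to 103. Rasal3, a gene of blood cells, was at 72.2, 5.42 and 85.5 normalized cpm in glands 1, 2 and 3 and at 5.32 to 14.6 in the tumors, while the sum of 9 lymphocyte genes in these glands was 558, 29.7 and 500. Rasa3, too, was lowest in gland 2 (103, 45.3 and 95.1 in glands 1, 2 and 3), and the part of these cells was not tested. The call of Rasal3 was lost without gland 1 or gland 3 (limma, adjusted p = 0.163 and 0.113), with reads summed per mouse (0.0777) and without the mouse of 3 tumors (0.0570). Without gland 2 the log2 fold change of Rasal3 was -3.12 (limma, adjusted p = 5.24e-06). Nf1, which encodes neurofibromin, was at 0.27 and did not pass the test. Of the 9 adaptor and exchange factor genes past the filter none was called, and Grb2 (-0.56, limma, adjusted p = 0.0436) passed the FDR alone. Without the filter 4 of 16 were lower, beside 10.1% of all genes. The 3 with the largest falls were the exchange factor genes Rasgrp2 (-2.99), Rasgrf2 (-2.38) and Rasgrp3 (-2.07). Each of these 3 had all 10 tumors below all glands, beside 8.53% of the genes past the filter. The fourth, Rasgrp1 (-1.85), had 2 of 10 tumors below all glands. Rasgrf2 rested on 1 to 21 reads per tumor, and its fold change depended on how low values are treated, with -3.83 at a pseudocount of 0.1, -3.84 by edgeR and -3.85 by DESeq2, where Rasgrp2 was at -3.31, -3.49 and -3.48. Rasgrp2 was at 54.8, 13.2 and 49.4 normalized cpm in glands 1, 2 and 3 and so, like Rasal3, lowest in the gland with the lowest lymphocyte sum. Without gland 1, 2 or 3 its log2 fold change was -2.64, -3.63 and -2.71, and the part of these cells was not tested. The medians past the filter were 0.09 for the GTPase-activating proteins and -0.07 for the adaptors and exchange factors, but -0.43 for all 16 of the latter, of which the filter leaves out 7, the 4 that were lower among them.

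Among the other dual-specificity phosphatase genes, 2 of the 8 past the filter were called, 1 higher and 1 lower, which is near the 10.2% and 6.99% of all genes tested. Dusp14 was higher, at 14.4 to 37.5 normalized cpm in the tumors against 4.62 to 6.14 in the glands (log2 fold change 1.75, limma, adjusted p = 7.42e-05), and Dusp3 was lower, at 15.2 to 27.5 against 46.1 to 47.7 (-1.02, limma, adjusted p = 0.00117). Dusp3 fell just short of 2-fold without tumor 1, 8 or 10 (-0.96, -0.998 and -0.96) and without the mouse of 3 tumors (-0.95). Dusp1, an immediate early gene, was at -0.06. Of the 4 other Sprouty, Spred and related inhibitor genes past the filter none was called, and Lrig1 at 0.62 passed the FDR alone (limma, adjusted p = 0.0260). The median of these 4 was 0.43 and that of the 8 phosphatase genes -0.06.

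The list that moved was that of other ERK-induced genes, which mostly encode transcription factors. Of all 18 without the filter, 12 were higher and none was lower in the tumors, beside 10.5% of all genes that were higher, and the list median was 1.18. The 12 were also called with the filter, which 16 passed, beside 10.2% of all genes tested. Of the 12, Etv4 and Egr3 were at 5 normalized cpm or less in every gland and so passed the filter through the tumors alone. For 10 of the 12, all 10 tumors were above all 3 glands, beside 10.7% of all genes tested. The same comparison had picked the 12. The largest rises were those of the immediate early gene Fos, at 35.3 to 98.8 normalized cpm in the tumors against 3.51 to 10.8 in the glands (log2 fold change 3.06, limma, adjusted p = 2.19e-06), of the ETS factor gene Etv4, at 10.02 to 51.5 against 1.46 to 3.72 (2.39, limma, adjusted p = 0.000161), and of the ephrin receptor gene Epha2, at 14.1 to 82.7 against 3.78 to 9.12 (1.96, limma, adjusted p = 0.00141). The other 9 were Fosl2, Jun, Junb, Egr1, Egr2, Egr3, Ier3, Ccnd1 and Epha4. Ier2 (0.51), Myc (0.07), Phlda1 (-0.06) and Etv5 (-0.44) did not pass the test, and Fosb and Etv1 were under the filter. Without gland 3, 7 of the 16 were higher, and with libraries scaled to epithelial genes 6 were, among them Fos, Etv4 and Epha2 in both. ERK phosphorylation was not measured in these libraries.

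**Figure D4:**
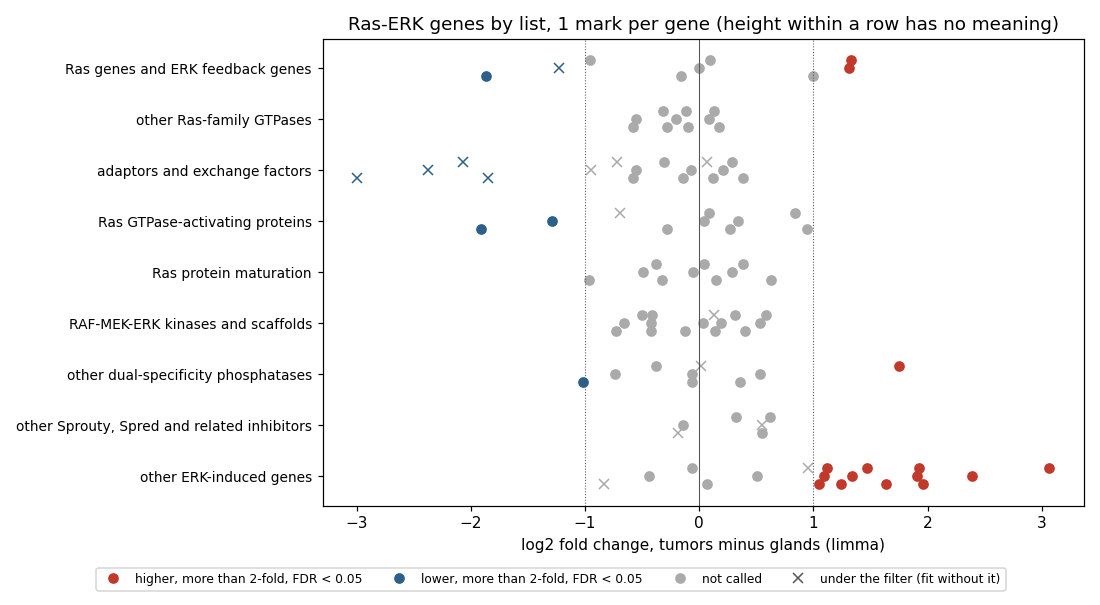
Log2 fold change of tumors minus glands (limma), 1 mark per gene, for the 9 Ras and ERK feedback genes and 8 further lists of the pathway. Red marks are higher and blue marks lower by more than 2-fold with an FDR below 0.05, grey marks are not called, and crosses are genes under the filter. The 12 red marks in the row of other ERK-induced genes contrast with the kinases and GTPases, which lie between the 2-fold lines.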

How the data were processed

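The 9 genes and the lists were chosen with earlier results of these data known. Total RNA of 10 tumors and 3 glands was sequenced as 75 bp paired-end reads. Per the study's methods, the authors used Rsubread 2.0.0 for mapping to mm10, featureCounts for gene counts and edgeR 3.28.0 for normalization. The strand setting is not given in the sources used here. The signal values deposited by the authors are reads scaled by a size factor per library. Within 0.05 read, 100% of them were whole multiples of 1 read, which gave back the reads for edgeR 4.0.16 and DESeq2 1.42.0 (alternatives).

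Tumors and glands were compared with limma 3.58.1 (R 4.3.3, variance trend, no covariate) on log2(normalized cpm + 1). Fold changes are on that scale, which understates those of low genes. Genes at 5 or less in the majority of libraries (3418) were left out, and 11795 were tested with Benjamini-Hochberg adjustment. Calls needed more than 2-fold and an FDR below 0.05. Exact permutation tests took log2 values and are unadjusted. The script was tested on simulated data. Because 10 tumors came from 6 mice, mouse means, summed reads and a correlated block were alternatives.

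Named were all 9 genes, in each list the 3 called genes that rose most and the 3 that fell most (any gene of a list under 11 genes could be named), the 2 genes most like each of the 9, and Tsg101. Other genes of the lists were named after their values were seen. For the exchange factors, under the filter, the calls without it served. Coordinates are of GRCm38.p6 RefSeq by Entrez ID. Exon lengths are of GENCODE vM21.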

Additional observations from a re-analysis of the deposited data

Results flagged for a closer look

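In 5 of the 19 genes checked, 1 tumor lay far from the other 9, with a gap to its nearest neighbour above 0.466 of the range of the 10 tumors. The limit is set to mark about 1 in 20 groups of independent, normally distributed values, which cpm values of tumors that share mice are not. On the log2 scale, 1 of the 5 (Etv4, 0.567 of the range) passed it. Etv4 was at 51.5 normalized cpm in tumor 7, where the next tumor was at 20.7. Epha2 was at 82.7 in tumor 7, with the next at 41.2. Dusp14 was at 37.5 in tumor 7, with the next at 25.5. Tumor 7 also had the highest squamous and basal epithelial sums of the 10 tumors (2302 and 4563 normalized cpm, with medians of 478 and 1447). Without it the log2 fold changes were 2.22 for Etv4, 1.80 for Epha2 and 1.66 for Dusp14, all still called. Fos was at 98.8 in tumor 9, the library with 27.4% of its reads on Rn45s, and the next tumor was at 68.0. Rasal3 was at 14.6 in tumor 1, with the next at 9.65. None of the 9 Ras and ERK feedback genes had such a tumor, although tumor 7 was also the highest for Dusp5, Spry1, Spry2 and Spry4.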

How the results depend on the processing

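Of the 9 genes, 2 were higher and 2 lower in the tumors, and leaving out 1 library at a time gave between 1 and 3 higher and between 1 and 3 lower. Scaled to epithelial genes, 0 were higher. With reads summed per mouse, and without the mouse that gave 3 tumors, 1 was lower. Among the other ERK-induced genes, 12 were higher, between 7 and 12 with 1 library left out, 6 with the epithelial scaling and 7 without tumor 9 and gland 3 together, an alternative chosen after seeing the data. Across all genes, 615 were higher and 2527 lower with the epithelial scaling, and 1538 were lower without the filter. The sign of Dusp5 turned to 0.0396 with edgeR, 0.0540 with DESeq2 and 0.0827 without the mouse of 3 tumors, and ran from -0.31 to 0.26 with 1 library left out. The cause was not tested. Spry2 turned to -0.49 with the epithelial scaling, where the median of all genes was -0.58. Tumors and glands 1 to 3 share replicate numbers, and their deviations from the group means correlated at -0.58, 0.04 and -0.66. From 3 pairs, these values cannot show whether a shared number marks a shared batch. With this replicate block, 0 of the 9 genes were higher and 0 lower by limma, 1 of the other ERK-induced genes was higher, and 362 and 182 of all genes were higher and lower. With 3 glands and 6 tumor-bearing mice, and 13 reads of Spry4 in the shallowest case, small changes were not detectable, and batch and group could not be separated.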
